A study of Mus musculus with 9 samples.

Results

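Transcript levels were compared between mouse primary macrophages held in 1% oxygen for 7 days (chronic hypoxia) and cells of the same kind held in standard oxygen and then in 1% oxygen for 3 hours (acute hypoxia). Each group had 3 libraries, 6 of the 9 in the series. The remaining 3 libraries, kept for 7 days in standard oxygen, entered no test in this comparison and their levels are given only beside the others. All genes with a mean of at least 1 TPM (a transcript's share of the library corrected for transcript length) over the 6 hypoxic libraries were taken, which gave 11087 of the 34866 genes listed. The culture medium, alpha-MEM, was supplemented with serum and with supernatant of L929 fibroblasts, which secrete the macrophage growth factor CSF1. No genotype, strain, age or tissue of origin is given in the sources used here, and the labels state 3 biological replicates per group without saying whether they came from separate animals.

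The title numbers and the digits in the sample descriptions pair each chronic library with 1 acute library, so the comparison was made within 3 pairs. Pair 1 carries the digits 1201, pair 2 carries 1205 and pair 3 carries 0308, whose meaning is not stated. Values below are listed in the order of pairs 1, 2 and 3, and standard oxygen values follow the same digits. Close to the filter, Usp27x was the last gene taken, with a mean of 1.00176 TPM (1.04 in acute and 0.966 in chronic hypoxia), and Fam89a was the first left out, with 0.99996 TPM (1.17 and 0.825). Of the genes taken, 212 had an acute mean under 1 TPM, 29 of them called higher, and 126 a chronic mean under 1 TPM, 20 of them called lower. Such genes passed the filter through 1 group only.

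Cells sense low oxygen through prolyl hydroxylases, which mark the alpha subunits of the hypoxia-inducible factors (HIF) for destruction while oxygen is present. When oxygen falls, HIF accumulates and raises transcription of genes for glucose uptake, glycolysis, blood vessel growth and the prolyl hydroxylases themselves. Macrophages meet such conditions in wounds, tumours and plaques, where they also clear dying cells, a task called efferocytosis. The comparison asks how a long stay in low oxygen differs from its first hours, both groups being hypoxic at harvest.

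The libraries carried the RNA of macrophages. All 8 macrophage markers passed the filter and their summed level was 56607 to 74792 TPM in the acute and 61827 to 68031 TPM in the chronic libraries. Cd68, Itgam, Csf1r and Mertk made up only a small part of this sum. Their means were 1102.8, 550.6, 470.0 and 16.02 TPM in acute and 1308.6, 759.9, 699.4 and 21.63 TPM in chronic hypoxia. Mertk was lowest in the libraries with the digits 0308, at 2.21 and 2.59 TPM. Of the 8 markers Csf1r and Itgam rose and Cd14 and Fcgr1 fell, and after rescaling 0 remained higher and 2 lower. Itgam shares sequence and exons with other listed genes, so its level is uncertain. In bulk RNA, fewer cells of a type and less RNA per cell cannot be told apart. TPM keeps no record of read number, so the depth behind each value is unknown. The 10 most abundant genes held 23.4 to 29.5% of the acute and 18.7 to 24.7% of the chronic libraries. TPM are shares, so no level is independent of the others. The median gene changed by 0.14 (log2) as deposited and by 0.00115 after median-of-ratios rescaling, which centres it near 0 by construction. Counts are therefore given as deposited and after rescaling.

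Pair 3 stood apart from pairs 1 and 2 in level. In 13 genes both of its libraries lay at least 4-fold above all 4 others (on TPM + 1), and in 26 genes both lay at least 4-fold below. The corresponding counts were 7 and 12 for pair 1 and 1 and 0 for pair 2. Deviations from the group means correlated within every pair, with r across genes of 0.581, 0.395 and 0.631 (genes are not independent replicates). Between libraries of different pairs r ran from -0.528 to 0.121. A gene's deviations sum to 0 within each group of 3, so positive r within pairs lowers r between pairs by construction. The contrast between them is therefore no separate support for the pairing.

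More genes were higher than lower in chronic hypoxia as deposited, and the split was close to even after rescaling. With pairs as a block, limma called 1724 of 11087 genes (15.5%) at a Benjamini-Hochberg adjusted p under 0.05, 1345 higher (12.1%) and 379 lower (3.42%) in chronic hypoxia. The median change was 0.57 among the higher calls and -0.69 among the lower calls (log2), beside a median SD of 0.18 between the 3 pair differences of a gene. Changes of at least 1 (log2) accounted for 186 of the higher and 105 of the lower calls. All 1724 had the same sign in 3 of 3 pairs, as did 56.3% of all genes tested.

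The share of higher calls depended on the scale. It was 78.0% as deposited and 48.3% after rescaling, where 1088 genes were called (9.81%), 525 higher (4.74%) and 563 lower (5.08%). A total of 902 genes were called on both scales, 525 higher and 377 lower, with 0 in opposite directions. On the rescaled values without the pairing 73 genes were called (0.658%), 29 higher (0.262%) and 44 lower (0.397%). Without the pairing on the deposited values the count was 77 (0.695%), 61 higher and 16 lower, all of them also called with it, and 2305 genes had an unadjusted p under 0.05. In 2467 genes (22.3%) all chronic values lay above all acute values, and in 610 (5.5%) all lay below, of which 992 and 268 were called. Leaving out pair 1 left 4 calls (Arg1, Serpinf1, F13a1 and Lyz1, all higher, with 2528 genes at an unadjusted p under 0.05), leaving out pair 2 left 494 and leaving out pair 3 gave 2793, of which 1596 were among the 1724. With 2 pairs the fit has 1 residual degree of freedom per gene, and the calls of 84 of the 88 called genes named here were lost without pair 1.

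**Figure D1:**
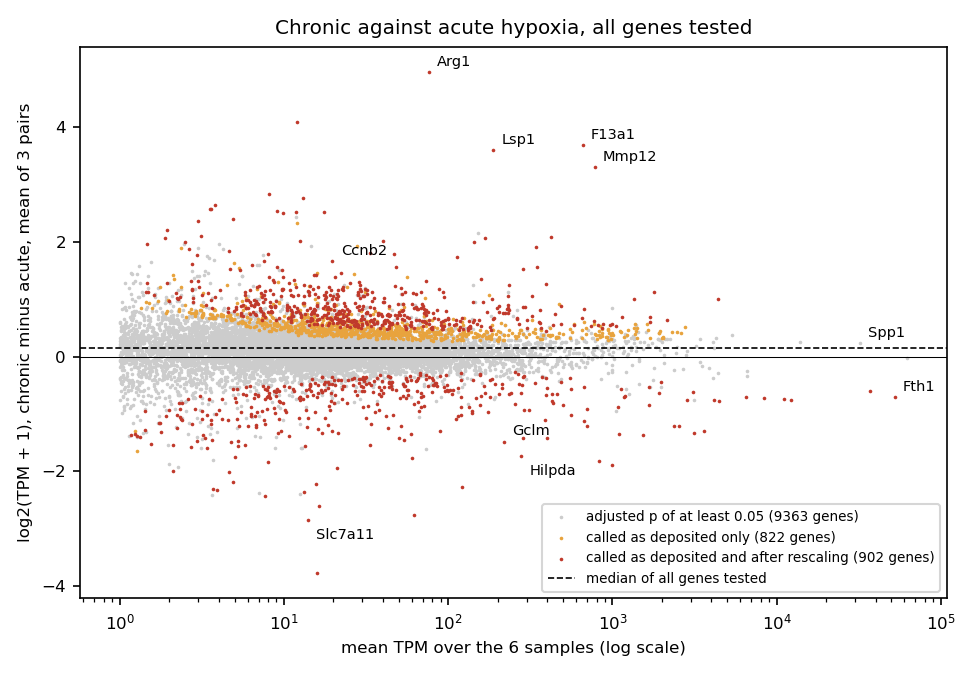
Change of each gene between chronic and acute hypoxia (vertical axis, log2 of TPM + 1, mean of 3 pair differences) against its mean TPM over the 6 libraries (horizontal axis, log scale). Each point is 1 gene, coloured by whether it was called as deposited and after rescaling; the dashed line is the median of all genes, 0.14, and the highest point is Arg1 at 4.96.

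The largest rise was that of Arg1. Arg1 (ENSMUSG00000019987), which encodes arginase 1, the enzyme that splits arginine into ornithine and urea, was 3.48, 3.59 and 4.34 TPM in the acute and 130.0, 141 and 176 TPM in the chronic libraries, against 0.713, 0.535 and 0.582 TPM at standard oxygen. The chronic mean was 39.2 times the acute mean, and the 3 chronic libraries lay within a narrow range far above the acute ones (log2 4.96, SE 0.083, limma adjusted p = 0.000108 paired and 0.000142 unpaired). Serpinf1, the secreted protein PEDF, was 0.603, 0.331 and 0.298 TPM in the acute and 31.7, 22.5 and 16.9 TPM in the chronic libraries (log2 4.09, SE 0.159, limma adjusted p = 0.00234 paired and 0.00435 unpaired). Its acute mean was under 1 TPM, so it passed the filter only through its chronic values. F13a1, the A subunit of coagulation factor XIII, was 128, 128 and 41.7 TPM in the acute and 1410.5, 1548 and 691 TPM in the chronic libraries (log2 3.69, SE 0.122, limma adjusted p = 0.00159 paired and 0.0483 unpaired). Pair 3 was the lowest in both groups for F13a1, and its change was the largest of the 3.

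Lsp1, a leukocyte protein that binds actin, was 24.8, 23.5 and 35.5 TPM in the acute and 371, 389 and 282 TPM in the chronic libraries (log2 3.60, SE 0.21, limma adjusted p = 0.00582 paired and 0.0039 unpaired). Mmp12, the macrophage elastase, was 147, 126 and 83.6 TPM in the acute and 2161, 1765 and 402 TPM in the chronic libraries (log2 3.30, SE 0.329, limma adjusted p = 0.0108 paired and 0.0678 unpaired). The Mmp12 level of pair 3 rose less than that of the other pairs. Egln3, the prolyl hydroxylase PHD3 and itself a HIF target, was 9.08, 9.75 and 30.7 TPM at standard oxygen, 112, 110.4 and 231 TPM in the acute and 562, 537 and 514 TPM in the chronic libraries (log2 1.92, SE 0.243, limma adjusted p = 0.0141 paired and 0.0504 unpaired). The Egln3 levels of the 3 groups did not overlap. Itga8, an integrin alpha chain, was 4.21, 3.90 and 4.90 TPM in the acute and 19.2, 22.3 and 20.4 TPM in the chronic libraries (log2 2.02, SE 0.12, limma adjusted p = 0.00602 paired and 0.00447 unpaired).

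The rest of the 15 highest were Gja1 (log2 2.77), the gap junction protein connexin 43, Tnfrsf9 (2.52), the receptor 4-1BB, Cadps (2.51), Apoc2 (2.08), Lyz1 (2.07), Mmp8 (2.02), the orphan receptor gene Gpr141 (1.80) and the sialyltransferase gene St8sia4 (1.78). Their limma adjusted p ran from 0.00159 to 0.015 with pairs, and without pairs Apoc2 (0.0221) and Gpr141 (0.0479) passed while Gja1, Tnfrsf9, Cadps, Lyz1, Mmp8 and St8sia4 did not (0.0529 to 0.105). Apoc2 and Lyz1 share sequence or exons with other listed genes, so part of their value is uncertain.

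The genes that fell most include several of glutathione synthesis and detoxification and several whose acute values lay above those of standard oxygen. Slc7a11, the cystine importer that feeds glutathione synthesis, was 11.4, 11.7 and 54.6 TPM in the acute and 0.986, 1.32 and 4.15 TPM in the chronic libraries (log2 -2.84, SE 0.214, limma adjusted p = 0.00748 paired and 0.0947 unpaired). Pair 3 had the highest Slc7a11 level in both groups, and the groups did not overlap. Tgm2, transglutaminase 2, was 67.8, 69.9 and 109 TPM at standard oxygen, 166, 170.3 and 259 TPM in the acute and 28.5, 29.2 and 74.0 TPM in the chronic libraries (log2 -2.27, SE 0.159, limma adjusted p = 0.00707 paired and 0.0616 unpaired). Chronic Tgm2 in pairs 1 and 2 lay below all standard oxygen values.

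Hilpda, which blocks the breakdown of lipid droplets, was 82.2, 79.9 and 85.4 TPM at standard oxygen, 368, 404 and 517 TPM in the acute and 136, 122 and 125 TPM in the chronic libraries (log2 -1.73, SE 0.124, limma adjusted p = 0.00707 paired and 0.0194 unpaired). Its chronic values lay between those of the other groups without overlap. Fosl1, an AP-1 transcription factor gene whose counts can mix with an overlapping gene, was 6.45, 6.74 and 12.1 TPM, 18.3, 15.7 and 44.7 TPM and 2.68, 2.55 and 10.3 TPM in the same order (log2 -2.21, SE 0.116, limma adjusted p = 0.00509 paired and 0.11 unpaired). Il1f9, which encodes the cytokine IL-36 gamma, was 19.7, 15.7 and 52.5 TPM in the acute and 2.21, 3.11 and 5.33 TPM in the chronic libraries (log2 -2.60, SE 0.212, limma adjusted p = 0.00802 paired and 0.0654 unpaired). In Il1f9 pair 3 was again the highest of each group, with the same direction of change.

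Prl2c2, of the prolactin-like proliferin family, had the lowest change of all genes tested (log2 -3.77, limma adjusted p = 0.012 paired and 0.0871 unpaired), but much of its sequence is shared with other listed genes and its level was 46.8, 41.1 and 5.21 TPM in the acute and 2.05, 0.602 and 0 TPM in the chronic libraries, with the last listed at 0. Its chronic mean was under 1 TPM, so it passed the filter only through its acute values. S100a8, a subunit of the calcium-binding protein calprotectin, was 937, 1023 and 1906 TPM in the acute and 274, 258 and 582 TPM in the chronic libraries (log2 -1.82, SE 0.082, limma adjusted p = 0.003 paired and 0.0841 unpaired). Wfdc17 (-1.88), Rnf183 (-1.56), Chchd10 (-1.54) and Phlda3 (-1.39, all log2) were also among the 15 lowest, together with Gsta3, Gclm and Gstm1, described with their pathway below. These 4 had limma adjusted p of 0.00707 to 0.0389 with pairs and passed in 0 cases without (0.0654 to 0.193).

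**Figure D2:**
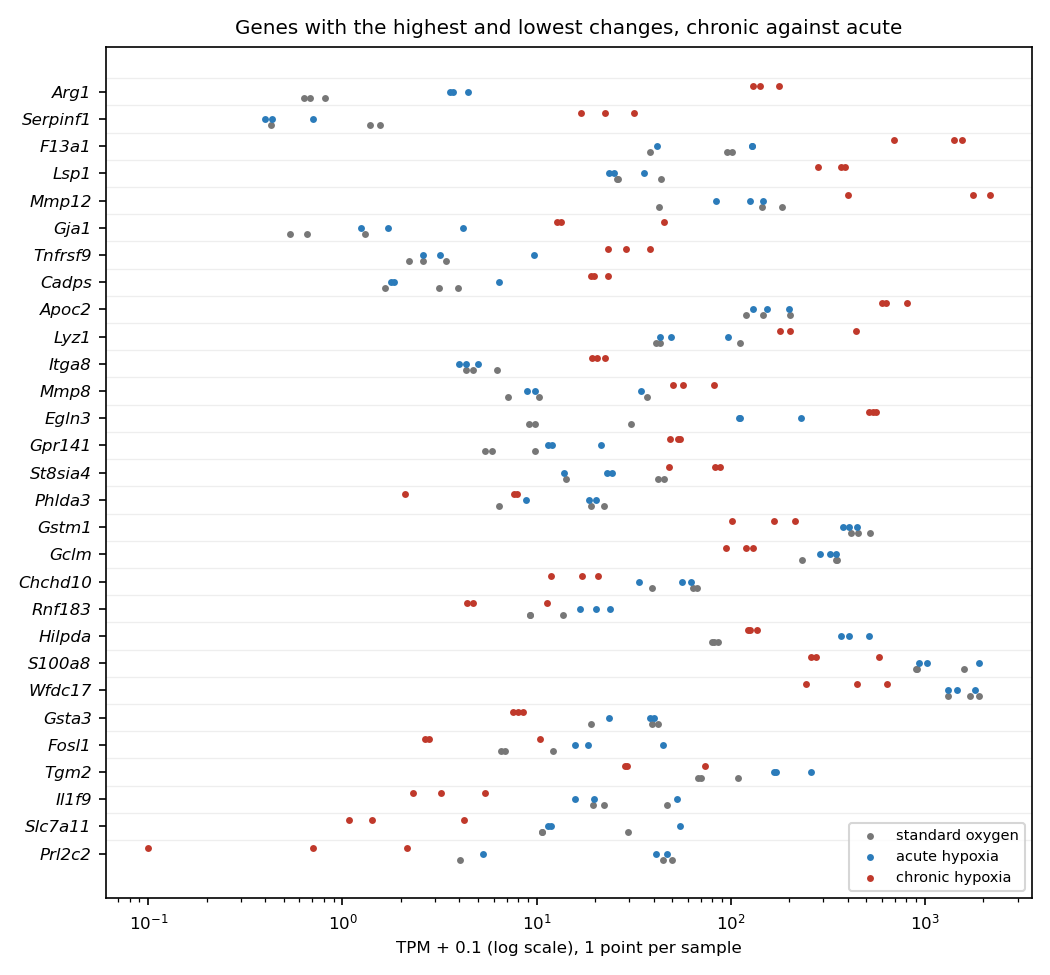
TPM + 0.1 (log scale) of genes among the 15 highest and 15 lowest changes that passed on both scales with no overlap between groups, 1 point per library in standard oxygen (grey), acute (blue) and chronic hypoxia (red). Arg1 is at the top, with 3.48 to 4.34 TPM in the acute and 130.0 to 176 TPM in the chronic libraries, and Prl2c2 at the bottom.

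Genes were also grouped into 34 lists of pathways and functions. The lists and their members were chosen with earlier results of these data known, so their counts and ranks are descriptions and no independent finding. In the counts that follow, all members with a mean of at least 1 TPM were tested, calls are at an adjusted p under 0.05 over all 11087 genes, and a list's median is set beside the 0.14 of all genes tested. Of the genes named from the lists, Pgls, Suclg2, Me1, Mmp19, Odc1, Pcna and Chil3 share sequence or exons with other listed genes, so their levels are uncertain. A list's count was neither tested against other genes nor adjusted within the list. Over all genes tested, 12.1% were higher and 3.42% lower as deposited, and 4.74% and 5.08% after rescaling. Without pair 3 these shares were 19.7% and 5.51%, and without pairs they were 0.55% and 0.144%. Without pair 1 the calls in all lists came to 0, except Arg1, Serpinf1 and F13a1. Counts of 5 or fewer in a list also moved with the other pairs, from 0 to 4 without pair 2 and from 1 to 16 without pair 3.

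**Figure D3:**
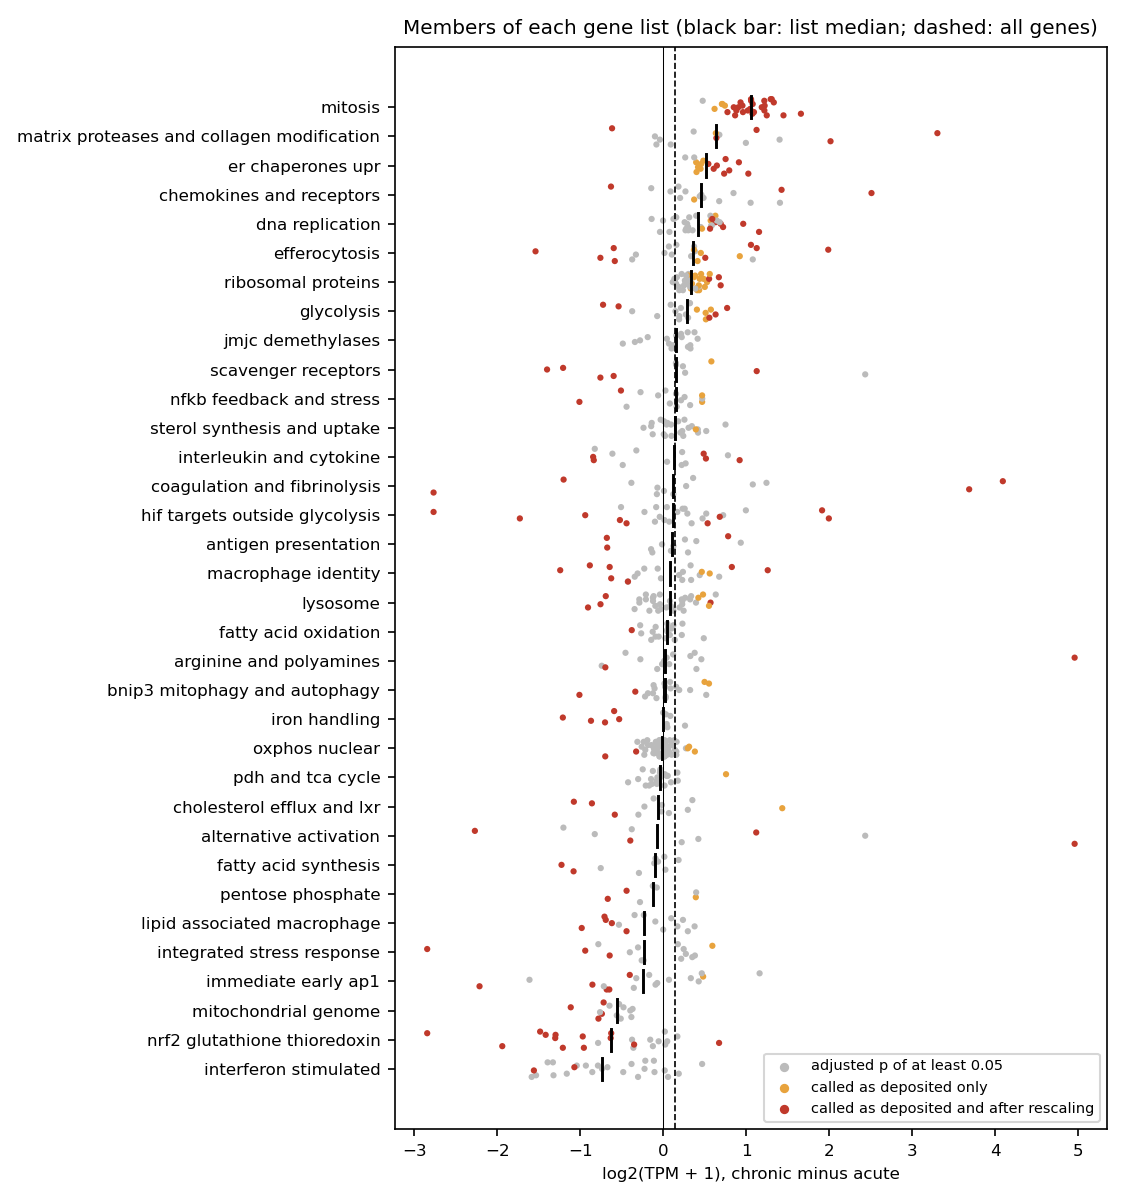
Change of each tested member of the 34 gene lists between chronic and acute hypoxia (log2 of TPM + 1), with the list's median as a black bar and the median of all genes, 0.14, as a dashed line. Mitosis genes have the highest median, 1.05, and interferon-stimulated genes the lowest, -0.74.

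Of 26 HIF target genes outside glycolysis tested, 4 were higher and 5 lower, the same 4 and 5 on both scales, beside 12.1% and 3.42% of all genes as deposited, with a median of 0.12 as deposited and -0.03 after rescaling. Without pairs 2 were higher (Stc2 and Pdk1, limma adjusted p = 0.0382 and 0.0448) and 1 lower (Hilpda), without pair 2 the counts were 3 and 2, and without pair 3 they were 12 and 5. Beside Egln3, the higher members were Stc2, Pdk1 and Fam162a. Stc2, the secreted glycoprotein stanniocalcin 2, was 0.39, 0.209 and 0.59 TPM in the acute and 3.91, 3.98 and 5.94 TPM in the chronic libraries (log2 2.00, SE 0.183, limma adjusted p = 0.00969 paired). Its acute mean was under 1 TPM, so it passed the filter through its chronic values. Pdk1, the kinase that turns off pyruvate dehydrogenase, was 52.2, 52.2 and 55.2 TPM at standard oxygen, 90.8, 97.2 and 89.5 TPM in the acute and 151, 148 and 148 TPM in the chronic libraries (log2 0.68, limma adjusted p = 0.0108 paired). The Pdk1 levels of the 3 groups rose in that order without overlap. Fam162a, a mitochondrial protein gene, was 631, 715 and 1201 TPM and 946, 956 and 1829 TPM (log2 0.54, limma adjusted p = 0.0169 paired and 0.419 unpaired), with overlap between the groups pair 3 being high in both.

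The lower HIF targets included Hilpda, Ddit4, Mxi1 and Plin2. Ddit4, an inhibitor of the growth kinase complex mTORC1, was 6.34, 7.21 and 17.2 TPM in the acute and 4.03, 3.77 and 5.50 TPM in the chronic libraries (log2 -0.94, limma adjusted p = 0.041 paired and 0.213 unpaired). Mxi1, an antagonist of MYC, was 20.6, 21.0 and 22.2 TPM at standard oxygen, 49.9, 47.5 and 47.6 TPM in the acute and 35.2, 31.2 and 33.8 TPM in the chronic libraries (log2 -0.52, limma adjusted p = 0.0169 paired and 0.0649 unpaired). Plin2, the coat protein of lipid droplets, was 2416, 2374 and 2071 TPM and 1752, 1797 and 1509 TPM (log2 -0.44, limma adjusted p = 0.0229 paired and 0.139 unpaired). Chronic levels of these genes lay below acute levels in every pair.

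Several well-known HIF targets were not called in either direction. Vegfa, the blood vessel growth factor, was 112, 132 and 326 TPM in the acute and 133, 144 and 212 TPM in the chronic libraries (log2 -0.08, limma adjusted p = 0.765). The glucose transporter gene Slc2a1 was 199, 221 and 429 TPM and 184, 204 and 231 TPM (log2 -0.37, limma adjusted p = 0.185). In both genes the acute library of pair 3 was far above the rest. Bnip3, a mitophagy receptor that shares sequence with another listed gene, was 301, 303 and 417 TPM and 529, 516 and 411 TPM (log2 0.52, limma adjusted p = 0.103), higher in pairs 1 and 2 and slightly lower in pair 3.

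Of 20 glycolytic enzymes tested, 7 were higher and 2 lower, beside 12.1% and 3.42% of all genes, with a median of 0.29. The majority of higher calls was like that of all calls as deposited, of which 78.0% were higher; after rescaling 3 and 2 were called with a median of 0.13, and without pairs 0 and 0. Without pair 2 the counts were 1 and 1, and without pair 3 they were 12 and 2. Aldoc, an aldolase, was 42.3, 52.2 and 73.5 TPM in the acute and 85.8, 93.6 and 103 TPM in the chronic libraries (log2 0.77, SE 0.114, limma adjusted p = 0.0181 paired and 0.116 unpaired). Tpi1, triose phosphate isomerase, was 579.8, 641 and 758 TPM and 910.5, 938 and 1054 TPM (log2 0.56, limma adjusted p = 0.0149 paired and 0.103 unpaired), and Eno1, Pgk1, Aldoa, Pfkfb4 and Gpi1 rose by 0.41 to 0.63. Eno1 and Pgk1 share sequence with other listed genes. Hk2, a hexokinase, which traps glucose at the entry of the pathway, was 21.4, 23.5 and 27.6 TPM at standard oxygen, 46.6, 53.6 and 94.9 TPM in the acute and 31.7, 37.0 and 43.5 TPM in the chronic libraries (log2 -0.72, limma adjusted p = 0.0297 paired and 0.21 unpaired), and Pfkfb3, which makes an activator of phosphofructokinase, changed by -0.54 (limma adjusted p = 0.0207 paired and 0.081 unpaired). Acute Hk2 levels exceeded the chronic ones in every pair, and both exceeded those of standard oxygen.

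The pentose phosphate pathway makes NADPH and ribose from glucose. Of its 7 members 1 was higher and 2 lower, beside 12.1% and 3.42% of all genes. The counts were 0 and 3 after rescaling, 0 and 1 without pair 2 and 1 and 3 without pair 3. Taldo1, transaldolase, was 508, 514 and 427 TPM in the acute and 312, 308 and 289.5 TPM in the chronic libraries (log2 -0.67, SE 0.071, limma adjusted p = 0.0122 paired and 0.0599 unpaired), and Pgd changed by -0.44 (limma adjusted p = 0.0262 paired and 0.138 unpaired). Pgls, the lactonase, changed by 0.39 (limma adjusted p = 0.0313 paired and 0.132 unpaired) and lost its call after rescaling (0.119).

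Transcripts encoded by the mitochondrial genome took a smaller share of the chronic than of the acute library in each pair. Their share of the library was 5.34, 4.53 and 4.85% in acute and 2.98, 2.61 and 3.78% in chronic hypoxia. All 13 protein genes had a negative change with a median of -0.56. Of them 4 passed (mt-Co1, mt-Co2, mt-Atp6 and mt-Atp8), beside 3.42% of all genes that were lower. The count was 5 after rescaling, 0 without pairs, 1 without pair 2 and 12 without pair 3. The lowest, mt-Atp8, a subunit of ATP synthase, was 1044, 904 and 817 TPM in the acute and 509, 334 and 447 TPM in the chronic libraries (log2 -1.11, limma adjusted p = 0.0122 paired and 0.0599 unpaired). These 4 genes share sequence or exons with other listed genes, so the level of each alone is uncertain. Of 71 nuclear genes of oxidative phosphorylation, 3 were higher and 2 lower, beside 12.1% and 3.42% of all genes. The counts were 0 and 6 after rescaling, 0 and 1 without pair 2 and 3 and 9 without pair 3. Ndufa4, a subunit of cytochrome oxidase, was 218, 225 and 221 TPM and 132, 141 and 136 TPM (log2 -0.70, SE 0.063, limma adjusted p = 0.00969 paired and 0.0428 unpaired), with narrow groups that did not overlap. Among 24 genes of pyruvate dehydrogenase and the citric acid cycle, 1 higher and 0 lower were called, beside 12.1% and 3.42% of all genes. The counts were 0 and 1 after rescaling and 2 and 3 without pair 3. Suclg2 was the one that passed as deposited (log2 0.76, limma adjusted p = 0.0279 paired and 0.0687 unpaired), and its adjusted p after rescaling was 0.0559. Of 21 fatty acid oxidation genes 0 were higher and 1 lower, beside 12.1% and 3.42% of all genes. The counts were 0 and 2 after rescaling, 0 and 0 without pair 2 and 0 and 3 without pair 3. The 1 called as deposited was Acads (log2 -0.38, limma adjusted p = 0.032 paired and 0.0954 unpaired).

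Antioxidant genes had the most lower calls of the 34 lists. NRF2, encoded by Nfe2l2, is the transcription factor that raises genes for glutathione and thioredoxin under oxidative stress, binding the antioxidant response element with small MAF proteins. Of 23 tested genes of this system 12 were lower and 1 higher, beside 3.42% and 12.1% of all genes. After rescaling the counts were 14 and 1, without pairs 4 and 0, without pair 2 they were 9 and 0, and without pair 3 they were 14 and 1. The median change was -0.63, and -0.78 after rescaling. In 12 members all acute values lay above all chronic values, beside 5.5% of all genes tested.

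The members cover glutathione synthesis, its use and the thioredoxin system. Gclm, the modifier subunit of the enzyme that limits glutathione synthesis, was 323, 349.9 and 288 TPM in the acute and 120.2, 129.8 and 94.2 TPM in the chronic libraries, and 352, 349.8 and 233 TPM at standard oxygen (log2 -1.48, SE 0.072, limma adjusted p = 0.004 paired and 0.0256 unpaired). Gsta3, a glutathione transferase, was 38.2, 40.3 and 23.6 TPM in the acute and 7.93, 7.48 and 8.36 TPM in the chronic libraries (log2 -1.94, SE 0.188, limma adjusted p = 0.0107 paired and 0.0289 unpaired). Hmox1, heme oxygenase 1, was 2479, 2391 and 1701 TPM at standard oxygen, 3637, 3401 and 3513 TPM in the acute and 1751, 1704 and 1179.6 TPM in the chronic libraries (log2 -1.21, SE 0.135, limma adjusted p = 0.0126 paired and 0.0493 unpaired). Acute Hmox1 exceeded standard oxygen in every library. The chronic level lay below standard oxygen within every digit code, although 2 of the 3 chronic values fell within the range of the standard oxygen libraries. Srxn1, sulfiredoxin, was 106, 109.6 and 166 TPM and 48.2, 53.0 and 49.4 TPM (log2 -1.30, limma adjusted p = 0.0129 paired and 0.0486 unpaired). Catalase (Cat) was 280.1, 249.6 and 160.4 TPM and 137, 134 and 80.3 TPM (log2 -0.97, limma adjusted p = 0.00707 paired and 0.139 unpaired), and thioredoxin reductase 1 (Txnrd1) was 143, 161 and 253 TPM and 85.0, 101 and 92.3 TPM (log2 -0.95, limma adjusted p = 0.0246 paired and 0.0912 unpaired). Prdx1 (-1.30), Gstm1 (-1.42), Gpx1 (-0.63), Gsr (-0.63) and Prdx6 (-0.35, all log2) also fell, of which Prdx1 and Gstm1 share sequence with other listed genes.

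The gene of the factor itself moved the other way. Nfe2l2 was 115, 105 and 114 TPM at standard oxygen, 87.1, 71.7 and 70.9 TPM in the acute and 148, 128 and 96.1 TPM in the chronic libraries (log2 0.67, SE 0.099, limma adjusted p = 0.0178 paired and 0.118 unpaired). Acute and chronic values did not overlap. The acute level lay below standard oxygen in every pair, and the chronic level lay above it in pairs 1 and 2 and below it in pair 3. Keap1, its inhibitor, changed by 0.17 (limma adjusted p = 0.187).

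The promoters of Gsta3 and Gclm are shown because they are the called members with the largest changes whose upstream sequence holds the core of the antioxidant response element, TGACNNNGC. The sequences are from RefSeq (GRCm38.p6), read 5′ to 3′ on the gene's strand and ending at the base before the transcript start, with matches on either strand in capitals. Gsta3 lies at chr1:21240335-21240584 (plus strand) and Gclm at chr3:122245307-122245556 (plus strand), where the match is on the opposite strand.
Gsta3: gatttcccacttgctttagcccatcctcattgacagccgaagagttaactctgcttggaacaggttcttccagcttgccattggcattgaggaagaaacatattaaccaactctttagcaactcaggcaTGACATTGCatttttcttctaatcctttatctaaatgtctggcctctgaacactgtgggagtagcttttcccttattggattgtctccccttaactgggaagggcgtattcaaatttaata
Gclm: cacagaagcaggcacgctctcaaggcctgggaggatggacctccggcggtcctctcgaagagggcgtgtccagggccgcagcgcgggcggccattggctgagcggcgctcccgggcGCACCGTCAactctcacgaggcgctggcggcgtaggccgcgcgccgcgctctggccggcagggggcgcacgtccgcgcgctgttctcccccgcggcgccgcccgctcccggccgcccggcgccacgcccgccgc
The match begins 121 bases before the start in Gsta3 and 134 bases before it in Gclm. Within the 250 bases before the start, 6 of 27 promoters of the list's 20 matched genes (22.2%) held this motif, beside 3338 of 32851 promoters in the table (10.2%). The list was drawn up from the system that NRF2 raises through this element, so the share is no independent finding. A match describes the letters only and does not show that a factor binds there.

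Iron-handling genes, of which Hmox1 is also in the antioxidant list, gave lower calls. Of 11 tested, 5 were lower and 0 higher on both scales, beside 3.42% and 12.1% of all genes as deposited. Without pairs and without pair 2 the counts were 1 and 0, and without pair 3 they were 5 and 2. Fth1 and Ftl1, the ferritin chains that store iron, were among the most abundant transcripts of the cells. Fth1 was 73711, 68787 and 50367 TPM in the acute and 49127, 43416 and 27938 TPM in the chronic libraries (log2 -0.70, SE 0.138, limma adjusted p = 0.0327 paired and 0.242 unpaired), the largest loss in TPM of any gene. Ftl1, which shares sequence with other listed genes, changed by -0.59 (limma adjusted p = 0.0389 paired and 0.167 unpaired). The transferrin receptor gene Tfrc was 169, 166 and 127 TPM at standard oxygen, 109.6, 105 and 54.1 TPM in the acute and 47.2, 54.0 and 39.0 TPM in the chronic libraries (log2 -0.87, limma adjusted p = 0.0243 paired and 0.169 unpaired). Chronic values of Fth1 and Tfrc lay below both other groups. Slc11a1, the phagosomal metal transporter NRAMP1, changed by -0.53 (limma adjusted p = 0.0172 paired and 0.105 unpaired).

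Genes of mitosis had the most higher calls of the 34 lists. Of 30 tested, 29 were higher and 0 lower, beside 12.1% of all genes that were higher. After rescaling 25 were higher, without pair 2 24 and without pair 3 29. The median was 1.05, and 0.91 after rescaling. Without the pairing 0 passed in limma, against 30 at an unadjusted paired p under 0.05, and pair 3 had the highest summed level in both groups. The summed level of the 30 genes was 244, 239 and 549.9 TPM in the acute and 568, 521 and 1031 TPM in the chronic libraries, so that the acute library of pair 3 lay between the chronic libraries of pairs 1 and 2. In 11 of 30 members all chronic values were above all acute values, beside 22.3% of all genes tested.

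The members act from entry into mitosis to its end. Ccnb2, a cyclin that drives entry into mitosis, was 5.19, 5.74 and 17.4 TPM in the acute and 21.0, 21.8 and 47.2 TPM in the chronic libraries (log2 1.66, SE 0.119, limma adjusted p = 0.00707 paired and 0.143 unpaired). Cdc20, an activator of the anaphase-promoting complex, was 3.70, 2.63 and 13.4 TPM and 11.5, 9.95 and 27.6 TPM (log2 1.33, SE 0.147, limma adjusted p = 0.0123 paired and 0.261 unpaired). Mki67, the proliferation marker Ki-67, was 6.37, 6.16 and 14.3 TPM and 14.3, 15.5 and 28.9 TPM, with 4.81, 4.68 and 10.4 TPM at standard oxygen (log2 1.08, SE 0.099, limma adjusted p = 0.00969 paired and 0.187 unpaired). In standard oxygen, too, the library with the digits of pair 3 was the highest of its group. Foxm1, a transcription factor for mitotic genes, was 2.85, 4.59 and 6.46 TPM and 10.5, 10.1 and 17.6 TPM (log2 1.30, limma adjusted p = 0.0129 paired and 0.0965 unpaired). Birc5, which encodes survivin, changed by 1.31, Kif11, a spindle motor, by 1.22, Top2a, topoisomerase II alpha, by 0.96 and Cdk1, the kinase of cyclin B, by 0.62 (all log2). The 1 member that did not pass was Ttk (0.48, limma adjusted p = 0.0947).

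Genes of DNA replication showed fewer calls. Of 32 tested, 10 were higher and 0 lower, beside 12.1% and 3.42% of all genes, with a median of 0.43. After rescaling 7 were higher, beside 4.74% of all genes, without pair 2 6 and without pairs 0. Without pair 3 the counts were 9 higher and 1 lower. Pold1, a subunit of DNA polymerase delta, was 5.93, 5.20 and 7.91 TPM and 11.4, 16.0 and 19.1 TPM (log2 1.16, SE 0.146, limma adjusted p = 0.0141 paired and 0.0687 unpaired). Tk1, thymidine kinase, changed by 0.97 (limma adjusted p = 0.015 paired and 0.203 unpaired) and the helicase subunit gene Mcm4 by 0.47 (limma adjusted p = 0.0495 paired and 0.128 unpaired), the latter losing its call after rescaling (0.137). Pcna, the polymerase clamp, was 312, 327 and 255 TPM and 268, 275 and 264 TPM (log2 -0.14, limma adjusted p = 0.301).

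The promoters of Ccnb2 and Cdc20 are shown because they are the called mitosis members with the largest changes whose upstream sequence holds TTTGAA, the core of the cell cycle homology region bound by repressors of mitotic genes in resting cells. CCAAT, bound by the factor NF-Y, was searched as well, both motifs on both strands, and the capitals mark either one. Ccnb2 lies at chr9:70421555-70421804 (minus strand) and Cdc20 at chr4:118437344-118437593 (minus strand) (RefSeq, GRCm38.p6).
Ccnb2: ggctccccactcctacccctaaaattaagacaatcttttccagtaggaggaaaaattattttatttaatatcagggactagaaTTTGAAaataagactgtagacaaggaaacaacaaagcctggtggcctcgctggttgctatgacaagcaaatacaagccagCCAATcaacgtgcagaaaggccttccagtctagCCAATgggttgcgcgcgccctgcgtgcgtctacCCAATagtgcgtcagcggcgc
Cdc20: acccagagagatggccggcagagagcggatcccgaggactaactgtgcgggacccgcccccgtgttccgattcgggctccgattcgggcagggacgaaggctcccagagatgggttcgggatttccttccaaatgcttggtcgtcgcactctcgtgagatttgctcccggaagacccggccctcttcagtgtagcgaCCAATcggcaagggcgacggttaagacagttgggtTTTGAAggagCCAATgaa
TTTGAA begins 167 bases before the start in Ccnb2 and 18 bases before it in Cdc20. TTTGAA occurred in 8 of 26 promoters of the list's 25 matched genes (30.8%), beside 16.0% of all 32851. CCAAT occurred in 20 of the 26 (76.9%), beside 33.8% of all. The motifs were searched because they are known from genes of this class, so these shares are no independent finding. Binding at the matches was not tested.

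Chaperones of the endoplasmic reticulum (ER), which fold secreted and membrane proteins, also rose. Of 16 tested, 14 were higher and 0 lower, beside 12.1% of all genes that were higher, 8 after rescaling and 2 without pairs, with a median of 0.52 as deposited and 0.36 after rescaling. Without pair 2 the count was 3 and without pair 3 it was 15. In 15 of 16 members all chronic values lay above all acute values, beside 22.3% of all genes tested. Pdia4, a disulfide isomerase, was 22.5, 25.1 and 20.7 TPM in the acute and 49.98, 51.6 and 41.1 TPM in the chronic libraries (log2 1.03, SE 0.079, limma adjusted p = 0.00748 paired and 0.0456 unpaired). Pdia6, another isomerase, was 43.0, 45.8 and 54.4 TPM and 82.0, 94.5 and 95.1 TPM (log2 0.91, SE 0.079, limma adjusted p = 0.00927 paired and 0.0479 unpaired). Hspa5, the chaperone BiP, was 165, 170.3 and 284 TPM at standard oxygen, 195, 189 and 226 TPM in the acute and 321, 318 and 315 TPM in the chronic libraries (log2 0.65, SE 0.082, limma adjusted p = 0.014 paired and 0.0548 unpaired). Chronic Hspa5 lay above both other groups, which overlapped each other. Hsp90b1 (0.75), the chaperone GRP94, Calr (0.74), calreticulin, Herpud1 (0.80), of ER-associated degradation, and Xbp1 (0.55, all log2), a transcription factor of the unfolded protein response, passed on both scales. Canx, calnexin, had the smallest change that passed (0.40, limma adjusted p = 0.0411 paired and 0.159 unpaired), and its adjusted p after rescaling was 0.142.

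The promoters of Pdia6 and Hsp90b1 are shown because they are the called members with the largest changes that hold the ER stress element, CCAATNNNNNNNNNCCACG, bound by NF-Y together with ATF6 in the unfolded protein response. Capitals mark this element on either strand. Other CCAAT letters stay in lower case, and CCAAT is itself the first part of the element. Pdia6 is shown at chr12:17266339-17266544 (plus strand) and Hsp90b1 at chr10:86705510-86705694 (minus strand) (RefSeq, GRCm38.p6), each up to the first stretch that an annotated transcript of the gene contains.
Pdia6: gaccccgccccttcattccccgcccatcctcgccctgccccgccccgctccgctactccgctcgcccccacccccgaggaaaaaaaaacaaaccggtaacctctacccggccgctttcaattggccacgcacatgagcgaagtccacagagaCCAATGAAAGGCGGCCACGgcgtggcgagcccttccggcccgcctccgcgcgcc
Hsp90b1: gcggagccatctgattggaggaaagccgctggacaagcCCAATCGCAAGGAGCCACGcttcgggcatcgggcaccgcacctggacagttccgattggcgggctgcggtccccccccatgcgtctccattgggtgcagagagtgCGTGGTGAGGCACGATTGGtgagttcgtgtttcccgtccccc
The element begins 98 bases before the start in Pdia6. Hsp90b1 holds it at 2 positions, the first 212 bases before the start and the second on the opposite strand. Of 14 ER chaperone promoters 7 held the element, beside 37 of 32851 in the table (0.113%), and 13 of 14 held CCAAT (92.9%). The element was first described from genes of this class, so the share is no independent finding.

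**Figure D4:**
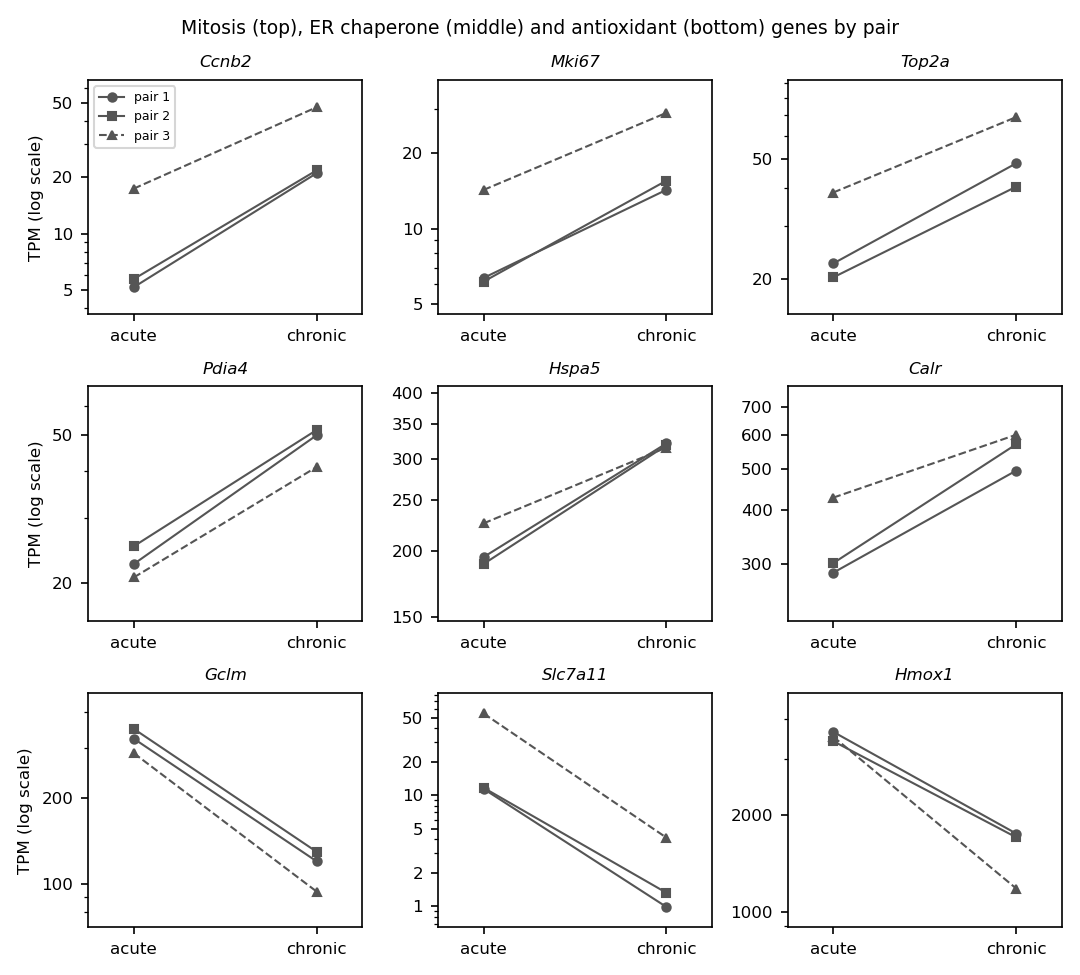
TPM (log scale) of 9 genes in the acute and chronic library of each pair, joined by lines; the top row holds mitosis genes, the middle row ER chaperone genes and the bottom row antioxidant genes. Pair 3 (dashed, triangles) lies above pairs 1 and 2 in the mitosis genes, with Ccnb2 at 17.4 TPM in the acute and 47.2 TPM in the chronic libraries, and all lines of a gene run in 1 direction.

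Ribosomal protein genes shifted by small amounts, and most of their calls were lost on rescaling. Of 40 tested, 19 were higher and 0 lower, beside 12.1% and 3.42% of all genes, with a median of 0.33 as deposited. After rescaling 3 were higher, beside 4.74% of all genes, with a median of 0.18. Without pairs 0 were higher, without pair 2 2 and without pair 3 27. Rps4x had the largest change (0.69, limma adjusted p = 0.0137 paired and 0.0616 unpaired), and it shares sequence with other listed genes.

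Of 22 efferocytosis genes tested, 8 were higher and 4 lower beside 12.1% and 3.42% of all genes, and 4 and 4 after rescaling beside 4.74% and 5.08%, with a median of 0.36 and 0 calls without pairs. Without pair 2 the counts were 3 and 2 and without pair 3 12 and 4. C1qa, a chain of complement C1q, which coats dying cells, was 65.3, 68.8 and 0.91 TPM in the acute and 281, 443 and 3.41 TPM in the chronic libraries (log2 1.99, SE 0.27, limma adjusted p = 0.0157 paired and 0.637 unpaired). Its rise was shared by the 3 pairs although its level was far lower in pair 3. C1qc (1.06) and C1qb (0.92) rose as well, C1qb only as deposited (adjusted p after rescaling 0.0555). Stab1, the scavenger receptor stabilin 1, was 40.8, 38.2 and 19.9 TPM and 90.5, 100.5 and 37.5 TPM (log2 1.13, SE 0.111, limma adjusted p = 0.0108 paired and 0.215 unpaired). Mertk, a receptor kinase for dying cells, was 24.0, 21.8 and 2.21 TPM and 29.0, 33.3 and 2.59 TPM (log2 0.34, limma adjusted p = 0.111), higher in each pair but short of the threshold.

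The members that fell include the bridging gene Pros1 and lipid-handling genes. Gas6, another bridging gene of the list, was not called (log2 1.08, limma adjusted p = 0.167 paired and 0.783 unpaired). It was 19.45, 16.4 and 0.338 TPM in the acute and 53.7, 77.2 and 0.0512 TPM in the chronic libraries, higher in pairs 1 and 2 and lower in pair 3. Pros1, the bridging protein S between dying cells and MERTK, was 4.29, 3.63 and 2.96 TPM in the acute and 1.12, 0.396 and 0.336 TPM in the chronic libraries (log2 -1.54, SE 0.192, limma adjusted p = 0.0138 paired and 0.0602 unpaired), so it passed the filter only through its acute values. Cd36, a receptor for oxidised lipid, was 4386, 4386 and 1852 TPM and 2762, 2534 and 1056 TPM (log2 -0.76, SE 0.08, limma adjusted p = 0.0122 paired and 0.42 unpaired). Abca1, a cholesterol exporter, was 24.5, 25.6 and 17.4 TPM at standard oxygen, 78.3, 76.6 and 47.8 TPM in the acute and 48.0, 55.6 and 31.2 TPM in the chronic libraries (log2 -0.58, limma adjusted p = 0.0161 paired and 0.283 unpaired). For each digit code, Abca1 was highest in acute hypoxia and lowest in standard oxygen. Itgav, an integrin chain that recognises MFG-E8, changed by -0.59 (limma adjusted p = 0.0199 paired and 0.231 unpaired).

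Among 12 genes of cholesterol efflux, 3 fell and 1 rose, beside 3.42% and 12.1% of all genes. After rescaling 4 and 0 did so, with 3 and 0 without pair 2 and 3 and 2 without pair 3. Nr1h3, the sterol sensor LXR alpha, was 18.3, 19.1 and 20.8 TPM in the acute and 8.39, 8.14 and 9.51 TPM in the chronic libraries (log2 -1.08, SE 0.091, limma adjusted p = 0.00898 paired and 0.0289 unpaired), and Abcg1, another exporter, changed by -0.86 (limma adjusted p = 0.0122 paired and 0.215 unpaired). Pltp, the phospholipid transfer protein, was 15.2, 16.8 and 1.55 TPM and 62.3, 60.8 and 2.73 TPM (log2 1.44, limma adjusted p = 0.0335 paired and 0.562 unpaired), and its adjusted p after rescaling was 0.0523. Of 10 fatty acid synthesis genes 2 were lower on both scales, beside 3.42% of all genes as deposited and 5.08% after rescaling. They were Scd2 (-1.08, limma adjusted p = 0.00748 paired and 0.151 unpaired), a desaturase, and Me1 (-1.22, limma adjusted p = 0.0107 paired and 0.0256 unpaired), malic enzyme. Of 24 sterol synthesis and uptake genes, Srebf2 alone was called (0.39, limma adjusted p = 0.0352 paired and 0.177 unpaired), beside 12.1% of all genes that were higher. The count was 0 after rescaling, 0 without pair 2 and 4 without pair 3. Of 11 scavenger receptors 2 rose and 4 fell, beside 12.1% and 3.42% of all genes. The 4 were Cd36, Scarb1 (-0.60), Marco (-1.21) and Olr1 (-1.40, with a chronic mean under 1 TPM). After rescaling 1 was higher and 4 lower, and without pair 2 1 and 1, and without pair 3 4 and 4. Mrc1, the mannose receptor, was 2.08, 2.15 and 0.247 TPM and 27.2, 39.0 and 0.697 TPM (log2 2.43, limma adjusted p = 0.0581), higher in every pair. Its chronic mean was 14.9 times its acute mean, which rests on pairs 1 and 2, since pair 3 stayed under 1 TPM in both groups.

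**Figure D5:**
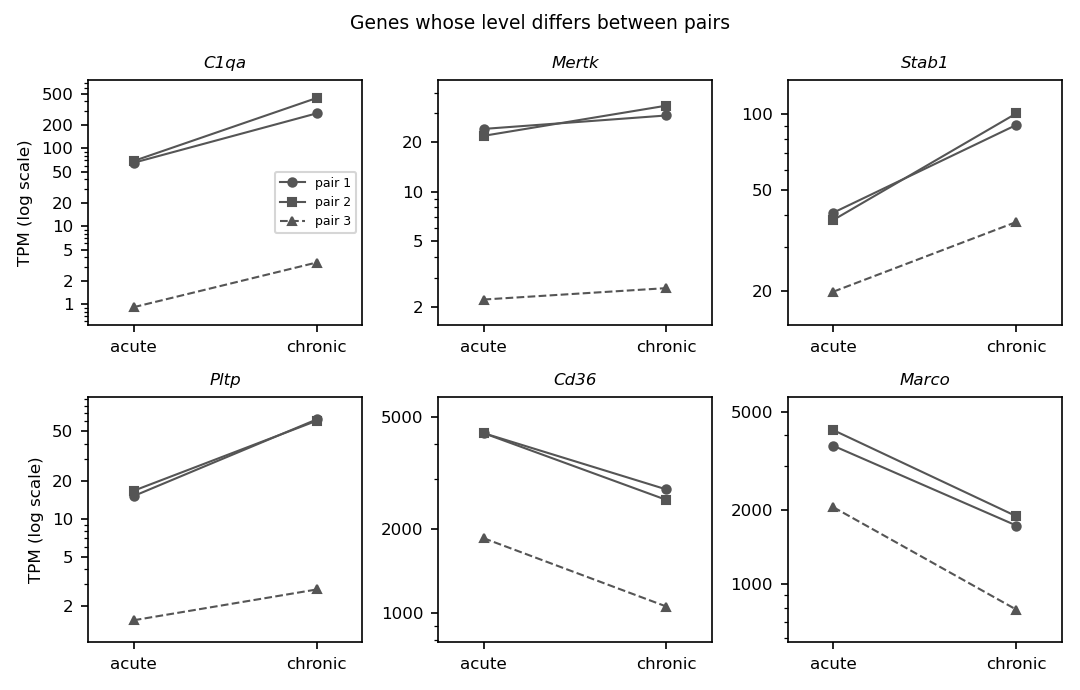
TPM (log scale) of 6 genes of uptake and lipid handling in the acute and chronic library of each pair, joined by lines. The level of pair 3 (dashed, triangles) is below that of pairs 1 and 2 in all 6, with C1qa at 0.91 and 3.41 TPM, while the direction of change is shared by the 3 pairs.

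Macrophage surface and activation genes changed in both directions. Of 22 identity genes 4 were higher and 5 lower, beside 12.1% and 3.42% of all genes. The counts were 2 and 6 after rescaling, 2 and 4 without pair 2 and 7 and 8 without pair 3. Fcgr3, a low-affinity antibody receptor that shares exons or sequence with other listed genes, was 259, 236 and 195 TPM in the acute and 637, 601 and 432 TPM in the chronic libraries (log2 1.26, SE 0.073, limma adjusted p = 0.00582 paired and 0.0493 unpaired). Aif1, the actin-bundling protein IBA1, was 68.9, 65.0 and 46.2 TPM and 29.2, 32.98 and 15.1 TPM (log2 -1.24, SE 0.127, limma adjusted p = 0.0119 paired and 0.105 unpaired), and Cd14, the endotoxin co-receptor, changed by -0.88 (limma adjusted p = 0.0127 paired and 0.0486 unpaired). Of 10 alternative activation genes 2 rose and 2 fell, beside 12.1% and 3.42% of all genes as deposited. Arg1 and Chil3 rose and Tgm2 and Il4ra fell, the same on both scales. Without pair 2 the counts were 1 and 1 and without pair 3 5 and 2. Chil3, the lectin Ym1, remained low at 0.224, 0.489 and 0.883 TPM and 1.62, 2.07 and 3.40 TPM (log2 1.12, limma adjusted p = 0.026 paired and 0.116 unpaired), so it passed the filter only through its chronic values. Of 16 genes of arginine and polyamine metabolism 1 rose and 1 fell, beside 12.1% and 3.42% of all genes. Arg1 rose and Odc1, which makes putrescine from ornithine, fell (-0.70, limma adjusted p = 0.0107 paired and 0.11 unpaired). The counts were 1 higher and 3 lower after rescaling and 3 and 4 without pair 3. Nos2, inducible nitric oxide synthase and the other consumer of arginine, was 2.53, 2.08 and 133 TPM at standard oxygen, 36.0, 41.8 and 800.2 TPM in the acute and 39.4, 33.4 and 195 TPM in the chronic libraries (log2 -0.74, limma adjusted p = 0.256). The pair 3 code had by far the highest Nos2 in each group, and the direction differed between pairs.

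Of 15 genes of lipid-associated macrophages 5 fell and 0 rose, beside 3.42% and 12.1% of all genes, with a median of -0.23. The counts were 7 and 0 after rescaling, 1 and 0 without pair 2 and 9 and 4 without pair 3. Fabp4, a fatty acid binding protein, was 144, 165 and 255 TPM in the acute and 86.0, 90.2 and 99.8 TPM in the chronic libraries (log2 -0.98, limma adjusted p = 0.015 paired and 0.086 unpaired), and Gpnmb changed by -0.62 (limma adjusted p = 0.0347 paired and 0.0987 unpaired). Spp1, osteopontin, among the most abundant transcripts, was 34293, 30264 and 21035 TPM and 47549, 40387 and 18692 TPM (log2 0.24, limma adjusted p = 0.367), higher in pairs 1 and 2 and lower in pair 3. Of 37 lysosome genes 4 were higher and 3 lower, beside 12.1% and 3.42% of all genes. The counts were 1 and 3 after rescaling, 0 and 1 without pair 2, and 16 and 6 without pair 3. Atp6v1b2, a proton pump subunit, had the lowest change (-0.90, limma adjusted p = 0.00707 paired and 0.202 unpaired) and Man2b1, a mannosidase, the highest that passed (0.57, limma adjusted p = 0.0174 paired and 0.195 unpaired). Of 12 antigen presentation genes 1 rose and 2 fell, the same on both scales, beside 12.1% and 3.42% of all genes as deposited. The co-stimulator gene Cd86 rose (0.78, limma adjusted p = 0.015 paired and 0.159 unpaired), and Cd80 (-0.67) and H2-DMa (-0.68) fell. Without pair 2 the counts were 0 and 0 and without pair 3 5 and 2.

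Of 14 matrix protease and collagen modification genes tested, 5 were higher and 1 lower beside 12.1% and 3.42% of all genes, 4 and 1 after rescaling, 0 and 0 without pairs, 3 and 0 without pair 2, and 10 and 1 without pair 3. The median was 0.64. Beside Mmp12, the collagenase gene Mmp8 was 9.66, 8.80 and 34.2 TPM in the acute and 56.3, 50.3 and 81.8 TPM in the chronic libraries (log2 2.02, SE 0.251, limma adjusted p = 0.0138 paired and 0.105 unpaired), and the gelatinase gene Mmp9 was 926, 866 and 1685 TPM and 2271, 2228 and 2781 TPM (log2 1.13, SE 0.143, limma adjusted p = 0.0141 paired and 0.0987 unpaired). Neither had overlap between its groups. Plod1, a lysyl hydroxylase that modifies collagen, changed by 0.64 (limma adjusted p = 0.0176 paired and 0.0599 unpaired), whereas Mmp19 fell (-0.62, limma adjusted p = 0.0389 paired and 0.156 unpaired). Of 13 coagulation and fibrinolysis genes 2 rose and 2 fell, the same on both scales, beside 12.1% and 3.42% of all genes as deposited. Serpinf1 and F13a1 rose, and the protein C receptor gene Procr was among those that fell (-1.20, limma adjusted p = 0.0135 paired and 0.0885 unpaired). Without pair 3 the counts were 7 and 3.

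Of 14 interleukins and cytokines 3 were higher and 2 lower, the same on both scales, beside 12.1% and 3.42% of all genes, 0 and 2 without pair 2 and 5 and 2 without pair 3. Tnf, the cytokine TNF, was 122, 118 and 256 TPM at standard oxygen, 67.8, 66.8 and 98.2 TPM in the acute and 100.3, 93.4 and 133 TPM in the chronic libraries (log2 0.49, SE 0.069, limma adjusted p = 0.0165 paired and 0.234 unpaired). Tnfsf9, the ligand of 4-1BB, changed by 0.92 (limma adjusted p = 0.0253 paired and 0.0716 unpaired), and Il1rn, the interleukin 1 receptor antagonist, by -0.84 (limma adjusted p = 0.04 paired and 0.0987 unpaired). Igf1, a growth factor, was 816, 796 and 310.1 TPM in the acute and 448, 460.0 and 171 TPM in the chronic libraries (log2 -0.84, limma adjusted p = 0.00748 paired and 0.404 unpaired). Il1b was 0.566, 0.379 and 2.32 TPM in the acute and 0.548, 0.127 and 1.5 TPM in the chronic libraries, below the filter. Of 16 chemokines and receptors 3 rose and 1 fell, beside 12.1% and 3.42% of all genes. The counts were 2 and 1 after rescaling, 2 and 0 without pair 2 and 10 and 1 without pair 3. Cxcr4 changed by -0.63 (limma adjusted p = 0.033 paired and 0.0806 unpaired), and Cxcl2 was 10.2, 7.64 and 41.4 TPM and 26.4, 26.9 and 13.8 TPM (limma adjusted p = 0.616), with pair 3 moving against the others.

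Interferon-stimulated genes had the lowest median of all lists, -0.74, with 2 of 25 called, both lower, beside 3.42% of all genes, and 2 after rescaling. Without pair 3 the counts were 2 higher and 4 lower. The summed level of the list was 744, 788 and 1099.5 TPM in the acute and 905, 1045 and 543.5 TPM in the chronic libraries. The sum thus rose in pairs 1 and 2 and fell in pair 3. In 13 members all acute values lay above all chronic values, beside 5.5% of all genes tested. Irf7, a transcription factor of the interferon response, was 3.82, 6.60 and 27.9 TPM at standard oxygen, 5.11, 6.30 and 14.1 TPM in the acute and 1.84, 1.99 and 2.13 TPM in the chronic libraries (log2 -1.56, SE 0.256, limma adjusted p = 0.0225 paired and 0.0841 unpaired). Oas1a, the other called member, shares sequence with other listed genes, so its level is uncertain. It was 35.6, 38.6 and 55.2 TPM in the acute and 20.6, 22.3 and 16.5 TPM in the chronic libraries (log2 -1.07, limma adjusted p = 0.0297 paired and 0.0654 unpaired). Oas3, an antiviral synthetase, was not called, at 5.17, 5.67 and 23.4 TPM and 2.59, 2.59 and 3.31 TPM (log2 -1.39, limma adjusted p = 0.0584). In each of these genes the acute level was highest in pair 3, where the difference was also the largest.

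Of 18 immediate early and AP-1 genes 5 were lower and 1 higher, beside 3.42% and 12.1% of all genes. The counts were 5 and 0 after rescaling, 4 and 0 without pair 2 and 6 and 4 without pair 3. Junb was 177, 193 and 214 TPM in the acute and 106, 127 and 131 TPM in the chronic libraries (log2 -0.68, limma adjusted p = 0.0108 paired and 0.0656 unpaired), Dusp1, a phosphatase of MAP kinases, changed by -0.85 (limma adjusted p = 0.0267 paired and 0.202 unpaired) and Atf3 by -0.65 (limma adjusted p = 0.0389 paired and 0.0822 unpaired). Ier5 alone was higher as deposited (0.48, limma adjusted p = 0.0205 paired and 0.256 unpaired), with an adjusted p of 0.0527 after rescaling. Of 15 genes of the integrated stress response 3 fell and 1 rose, beside 3.42% and 12.1% of all genes. Slc7a11, Ddit4 and Cebpb fell, and Nupr1 rose (0.59, limma adjusted p = 0.0292 paired and 0.148 unpaired). The counts were 4 and 0 after rescaling and 2 and 0 without pair 2. Among 15 genes of NF-kB feedback and stress 2 rose and 2 fell, beside 12.1% and 3.42% of all genes. Nfkb1 (0.47, limma adjusted p = 0.0182 paired and 0.0794 unpaired) and Relb (0.47) rose. Tnfaip3 (-0.51) and the autophagy adaptor Sqstm1 (-1.01, limma adjusted p = 0.0369 paired and 0.107 unpaired) fell. The counts were 0 and 3 after rescaling, 0 and 1 without pair 2 and 6 and 4 without pair 3. Of 20 autophagy genes 2 were higher and 2 lower, beside 12.1% and 3.42% of all genes. Tfeb was among the higher (0.55, limma adjusted p = 0.0216 paired and 0.103 unpaired). The counts were 0 and 2 after rescaling, 0 and 1 without pair 2 and 3 and 2 without pair 3. Of 17 JmjC histone demethylases, which use oxygen, 0 were called in limma, beside 15.5% of all genes called in either direction. Of the 17, 9 had an unadjusted p under 0.05, and 1 was called without pair 3 and 1 after rescaling. The lowest change among them was that of Kdm6b, which was 2.61, 2.84 and 6.57 TPM and 1.33, 1.77 and 4.90 TPM (log2 -0.49, limma adjusted p = 0.0887).

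Markers of other cell types moved in places, and their part in the results was not tested. Of 12 neutrophil markers 5 were tested, with S100a8 lower and Mmp8 higher, and S100a9 and Retnlg were listed at 0 in all 6 libraries. Whether a listed 0 reflects a lack of the transcript was not tested. The summed level of the neutrophil list was 954 to 1946 TPM in the acute and 319 to 668 TPM in the chronic libraries. Most of it was S100a8 alone, at 937, 1023 and 1906 TPM in the acute and 274, 258 and 582 TPM in the chronic libraries. Of 8 osteoclast markers 4 were tested and Mmp9 was higher, with Calcr at 0 and a sum of 893 to 1752 TPM against 2255 to 2846 TPM. Nearly all of this sum was Mmp9 alone, at 926, 866 and 1685 TPM in the acute and 2271, 2228 and 2781 TPM in the chronic libraries. Of 6 monocyte markers 3 were tested and Chil3 was higher, with a sum of 44.1 to 200.0 TPM in the acute and 64.4 to 983 TPM in the chronic libraries. Most of that sum was Ly6c2, at 52.1, 42.6 and 194 TPM in the acute and 78.8, 60.3 and 969.5 TPM in the chronic libraries (log2 1.13, limma adjusted p = 0.0943). Pair 3 was the highest in both groups, as it was for the mitosis sum. Single markers of platelets (Pf4, 2.51, 1 of 8 tested), B cells (Ighm, 0.88, 1 of 7 tested, Pax5 at 0) and endothelium (Pecam1, 1.14, log2, 2 of 6 tested, Emcn at 0) were higher. Their summed levels in acute and chronic hypoxia were 2.6 to 6.83 and 2.87 to 29.0 TPM for platelets, 2.63 to 11.4 and 5.45 to 21.3 TPM for B cells, and 24.3 to 61.4 and 54.0 to 58.3 TPM for endothelium. Of 12 fibroblast markers 1 was tested and 0 were called, with Lum, Postn and Twist1 at 0 and a sum of at most 2.66 TPM in a library. For dendritic cells, mast cells, T and NK cells and erythroid cells 0 markers passed the filter, and their sums were at most 1.03, 0.67, 1.95 and 2.13 TPM.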

How the data were processed

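RNA sequencing of 9 macrophage cultures (75-base paired-end reads, per the labels' protocols) was deposited by the authors as TPM per Ensembl gene, and 6 columns were compared here. FastQC, STAR, featureCounts and the build GRCm38 are named, per the submitters' processing notes, without versions or roles. No read number is kept by the deposited TPM, so the depth per library is unknown. Symbols were found for 34582 of 34866 identifiers and GENCODE M21 annotation for 34652.

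Genes with a mean of at least 1 TPM over the 6 libraries were tested on log2(TPM + 1), a pseudocount of 1, with limma 3.58.1 in R 4.3.3 (moderated with a mean trend, Benjamini-Hochberg adjustment over all 11087 genes, two-sided, threshold 0.05). Fold changes on this scale understate the change of low genes. Tables were handled with pandas 2.3.3 in Python 3.11.15. The replicate number was a block, because the deviations from the group means of same-numbered acute and chronic libraries correlated in every pair (r of 0.581, 0.395 and 0.631 across genes). The paired p-values measure the spread of the differences within pairs, since the block takes out differences in level between pairs. The unpaired p-values also carry that spread between pairs.

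Genes were named if they were among the 15 largest changes per direction with a mean of at least 10 TPM, called on both scales, without overlap between groups and not a predicted model, or were the extremes of a list or part of a fixed panel. Further list members were named for their roles after their values were seen. Members and lists were chosen with earlier results of these data known. A gene was called uncertain where at least 5% of its 75-base stretches occur in another listed gene or at least 20% of its exons overlap one, which held for 1684 genes tested and 277 called. Of 2 identifiers named Aldoa the more abundant was used. The alternatives tried were no block, other pseudocounts, filters and scalings, no trend, all 9 libraries in 1 fit, a limit on the log2 change and leaving out each pair. The scripts were tested on simulated data. Some genes are not reported here.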

Additional observations from a re-analysis of the deposited data

How the results depend on the processing

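The count of called genes moved with most choices. The paired fit gave 1724 calls, 1345 higher and 379 lower. Without the replicate block there were 77 calls, 61 higher and 16 lower (2305 genes at an unadjusted p under 0.05 in limma), and 18 of the 88 called genes named by the rule passed. Median-of-ratios rescaling gave 1088 calls with 525 higher, quantile normalization 1061 with 535 higher, and rescaling with no replicate block 73, 29 higher and 44 lower. Without the mean trend there were 1034, 784 higher and 250 lower. With a limit of 1 on the absolute log2 change there were 291, 186 higher and 105 lower. With no filter on low values the calls were 3, all 3 higher and 0 lower, against 4108 genes at an unadjusted p under 0.05 in limma, 935 of them lower. Leaving out each pair gave 4 to 2793 calls, 4 to 2182 higher and 0 to 611 lower, the lowest without pair 1 (2528 genes at an unadjusted p under 0.05) and the highest without pair 3. Rescaling without pair 3, chosen after seeing the data, gave 889 higher and 831 lower. The causes were not tested, beyond the smaller number of libraries when a pair is left out. Pseudocounts of 0.1 and 5, a minimum of 5 TPM, the fit of all 9 libraries, and pair 3 left out with no block kept the 3 counts within 1.5 times. No direction of a gene named by the rule reversed while called. Depth could not be weighed, since TPM keeps none.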

Other observations

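Genes outside the lists, chosen after their values were seen, also differed between chronic and acute hypoxia. The metallothionein genes Mt1 and Mt2, which bind zinc and copper, fell in all 3 pairs: Mt1 was 4702, 3570.0 and 5205 TPM in the acute and 2064, 1459.9 and 1821 TPM in the chronic libraries (log2 -1.33, SE 0.096, limma adjusted p = 0.00716 paired and 0.0504 unpaired). Mt2 was 2056, 1829 and 2824 TPM and 855, 743 and 961 TPM (log2 -1.37, SE 0.089, limma adjusted p = 0.00707 paired and 0.0486 unpaired). Alas1, the first enzyme of heme synthesis, was 687, 634 and 1637 TPM and 299, 288 and 665 TPM (log2 -1.21, SE 0.071, limma adjusted p = 0.00582 paired and 0.215 unpaired), and pair 3 was the highest in both groups. Glrx, glutaredoxin, was 2172, 1892 and 771 TPM and 678, 549 and 511 TPM (log2 -1.35, limma adjusted p = 0.0273 paired and 0.134 unpaired). The acute-phase genes Lcn2 and Saa3 fell as well. Lcn2, which captures bacterial iron carriers, was 244, 199 and 1137 TPM and 76.0, 55.6 and 685 TPM (log2 -1.41, limma adjusted p = 0.0197 paired and 0.5 unpaired), and Saa3 changed by -1.41 (limma adjusted p = 0.0247 paired and 0.309 unpaired). Hp, haptoglobin, another acute-phase gene, rose instead, at 74.7, 74.0 and 379 TPM in the acute and 240.2, 209.8 and 1105 TPM in the chronic libraries (log2 1.57, SE 0.071, limma adjusted p = 0.003 paired and 0.345 unpaired). In these 3 acute-phase genes pair 3 had the highest level in both groups.

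Txnip, an inhibitor of glucose uptake and of thioredoxin, was 26.6, 24.6 and 91.2 TPM at standard oxygen, 184, 173 and 102 TPM in the acute and 343, 343 and 248 TPM in the chronic libraries (log2 1.05, SE 0.095, limma adjusted p = 0.00969 paired and 0.103 unpaired). Its chronic level exceeded the acute level in every pair. Mif, a cytokine whose sequence is shared with other listed genes, was 806, 736 and 1154 TPM and 1656, 1499 and 2237 TPM (log2 1.01, limma adjusted p = 0.00707 paired and 0.0895 unpaired). Clec4d, a C-type lectin receptor, was 2254, 2235 and 1951 TPM and 1350.1, 1242 and 1018 TPM (log2 -0.84, SE 0.079, limma adjusted p = 0.0101 paired and 0.0616 unpaired), with narrow groups that did not overlap. Stfa2, a cysteine protease inhibitor that shares sequence with other listed genes, was 24.4, 15.3 and 256 TPM and 6.68, 5.24 and 56.0 TPM (log2 -1.76, limma adjusted p = 0.00969 paired and 0.465 unpaired), higher by several-fold in pair 3 than in the others.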
